A study of Homo sapiens with 3 samples.

Results

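BCR and ABL1 are the partners of the fusion oncogene of chronic myeloid leukaemia, and GAB2, GRB2, CRKL, SOS1, SHC1, LYN and CBL are adaptors, enzymes and substrates known to work with the fused kinase. These 9, of 19974 protein-coding genes on the autosomes and chromosome X, were read from peak lists for 2 histone marks. Every deposited peak that shared at least 1 bp with the gene's hg38 record or the 5 kb on either side was taken, and every super-enhancer that overlapped the record or had the gene as its listed target. The cells were wild-type KBM7, a human line with close to a single set of chromosomes, derived from chronic myeloid leukaemia and carrying the fusion, grown in IMDM with 10% fetal bovine serum and not treated. The 3 libraries were an H3K27ac immunoprecipitate (Abcam antibody ab4729), an H3K4me3 immunoprecipitate (a Millipore antibody) and input chromatin. The series belongs to work on which cell type-specifying transcription needs the Mediator complex, and the profiles describe the cells without any perturbation. With 1 library per mark there was no replicate spread, so no test was made and each value describes these libraries alone.

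In the fusion, the 5′ part of BCR is joined to the 3′ part of ABL1, so that the fused gene is transcribed from the BCR promoter and encodes a tyrosine kinase that is always active. The BCR portion is bound by the adaptor GRB2, which brings GAB2 and the exchange factor SOS1, the route to PI3 kinase and to RAS, while CRKL is a major substrate of the kinase, SHC1 a further adaptor to RAS, LYN a SRC-family kinase of blood cells, and CBL a ubiquitin ligase that limits kinase signals. H3K4me3 is typical of active gene starts, and H3K27ac of active starts and enhancers. The lists hold only positions on the reference genome, so a peak in BCR or ABL1 cannot be assigned to the fused or the reciprocal chromosome, and the breakpoints were not located.

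The starts that the results turn on are shown as the 250 bases before each start, from RefSeq (GRCh38.p14), written 5′ to 3′ on the gene's own strand with GC boxes (GGGCGG, or its complement CCGCCC) in capitals. BCR (chr22:23180259-23180508, + strand) shows a start with both marks, and ABL1 (chr9:130835004-130835253, + strand) a start with neither. GAB2 has a first start (chr11:78417821-78418070, - strand) with both marks. Its downstream start (chr11:78341920-78342169, - strand) had only H3K27ac within 1 kb, and not over the start itself. The promoter table held 10 starts for 7 of the 9 genes. LYN and CBL were not in it.
BCR: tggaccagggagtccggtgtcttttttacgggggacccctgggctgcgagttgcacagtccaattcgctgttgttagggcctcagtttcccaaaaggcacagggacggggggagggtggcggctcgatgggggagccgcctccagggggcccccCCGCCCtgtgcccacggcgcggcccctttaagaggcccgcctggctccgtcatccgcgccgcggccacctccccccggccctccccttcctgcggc
ABL1: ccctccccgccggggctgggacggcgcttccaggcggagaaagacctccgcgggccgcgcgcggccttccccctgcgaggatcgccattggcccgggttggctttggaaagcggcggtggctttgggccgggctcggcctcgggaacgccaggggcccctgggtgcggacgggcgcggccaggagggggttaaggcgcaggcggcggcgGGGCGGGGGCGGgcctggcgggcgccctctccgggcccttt
GAB2, first start: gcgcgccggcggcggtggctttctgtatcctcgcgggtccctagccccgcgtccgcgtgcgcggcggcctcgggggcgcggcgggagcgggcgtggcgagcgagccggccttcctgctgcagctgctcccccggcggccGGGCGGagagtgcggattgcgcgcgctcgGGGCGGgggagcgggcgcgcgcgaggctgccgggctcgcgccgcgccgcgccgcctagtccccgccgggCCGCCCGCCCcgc
GAB2, downstream start: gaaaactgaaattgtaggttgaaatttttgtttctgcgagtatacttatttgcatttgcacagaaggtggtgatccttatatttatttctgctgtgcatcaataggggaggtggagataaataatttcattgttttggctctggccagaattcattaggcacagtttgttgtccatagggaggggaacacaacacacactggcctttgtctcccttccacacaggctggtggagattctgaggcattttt

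These 4 stretches differ in CpG content. The GAB2 first start was 84.0% G and C, with an observed over expected CpG ratio of 1.16 and 4 GC boxes, and the downstream start was 41.2% G and C with a ratio of 0.0976 and no GC box. The BCR stretch was 70.8% G and C with a ratio of 0.639 and 1 GC box, and the ABL1 stretch was 78.4% with a ratio of 0.877 and 2 adjoining GC boxes. By sequence, the ABL1 start is thus of the CpG-rich kind, like the BCR start and the first GAB2 start, though it carried no peak.

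All 9 genes had peaks of both marks within 5 kb. Among all protein-coding genes this held for 70.1% of 19974, and among those of at least 30 kb, to which all members but SHC1 belong, for 78.7% of 8825. At the start itself, within 1 kb of a start in the promoter table, 8 of the 9 had both marks, against 61% of all protein-coding genes; LYN and CBL, with no start in the table, were read at either end of the record. The exception was ABL1. A super-enhancer was listed for 3 of the 9, GAB2, GRB2 and LYN, each as its target, against 3.62% of protein-coding genes with a super-enhancer as target or by overlap and 2.3% as target alone. These super-enhancer shares were not matched for gene length.

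The 9 windows held 251 H3K27ac peaks and 53 H3K4me3 peaks. Most of the H3K27ac peaks were weak. The deposited fold compares the fragments at a peak's summit with the expected background, each with 1 added. In the 9 windows 172 of the 251 had a fold under 5. Most of the 96659 H3K27ac peaks of the list were weak by this measure too. Their median fold was 4.47, and a fold of 5 stood at about the 57.4th percentile of the list. Of the 53 H3K4me3 peaks 52 overlapped an H3K27ac peak, against 83.8% of the 36951 in the H3K4me3 list. Of the 251 H3K27ac peaks 49 overlapped H3K4me3, against 36.0% of the H3K27ac list. The single H3K4me3 peak without H3K27ac was 475 bp wide with a fold of 5.54 and began 4.00 kb into CRKL.

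By place, 17 H3K27ac and 12 H3K4me3 peaks lay within 1 kb of a member's own start, counting the 5′ end of the record as a start. H3K4me3 was strong at all 12 of them, with folds from 40.1 to 93.4 and a median of 74.1. The 39 H3K4me3 peaks away from any listed start had a median fold of 5.83 and a highest of 58.1, and 24 of them lay inside the super-enhancers. Of the 231 H3K27ac peaks away from starts, 19 reached a fold of 10, and the highest, 31.4, was in GAB2. The internal H3K27ac peaks of 10-fold or more were in BCR, ABL1, GRB2, GAB2 and LYN; the flank upstream of BCR also held one.

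**Figure D1:**
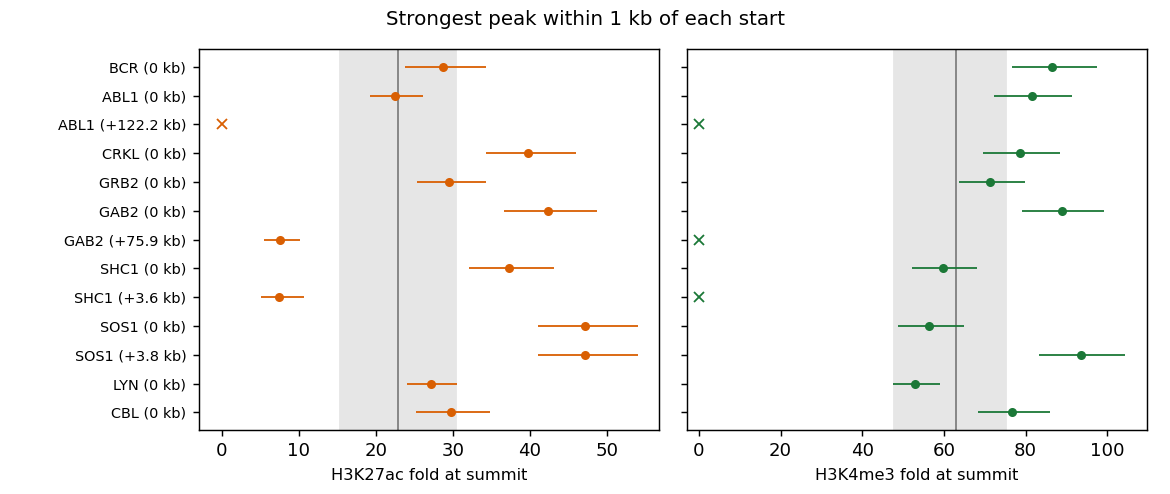
Fold at the summit of the strongest peak within 1 kb of each member's start (rows, with the distance of the start from the 5′ end of the record), for H3K27ac on the left and H3K4me3 on the right. Points have 95% Poisson intervals for the fragment count, crosses at 0 mark starts with no peak, and the grey band and line are the quartiles and median of protein-coding genes with that mark at the start; the ABL1 start at 122.2 kb has neither mark.

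H3K27ac fold, of the strongest peak within 1 kb of a start, was highest at SOS1, 47.2, and followed by GAB2 at 42.4, CRKL at 39.8 and SHC1 at 37.3. Below these came CBL at 29.7, GRB2 at 29.5, BCR at 28.7, LYN at 27.1 and the 5′ end of ABL1 at 22.5. Counting intervals of neighbours in this order overlapped throughout, and the interval of SOS1, 41.0 to 54.1, lay above those of the last 5, whose highest bound was 34.8. Over the 12609 protein-coding genes with H3K27ac at the start the median was 22.9 and the quartiles 15.4 and 30.3.

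H3K4me3 fold gave another order. SOS1 was again highest at 93.4, then GAB2 at 88.8, BCR at 86.5, ABL1 at 81.5, CRKL at 78.5, CBL at 76.8 and GRB2 at 71.4. SHC1 at 59.8 and LYN at 52.9 came last, and only these fell below the median of 62.9 over 13512 genes with the mark at the start (quartiles 47.8 and 75.1). The interval of LYN, 47.4 to 58.9, lay below that of GRB2, 63.7 to 79.7, so these folds differed beyond counting error at the summit. LYN had more fragments there, 334 against 310, over a higher expected background, 5.33 against 3.36.

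BCR (chr22:23180509-23318037, + strand), which encodes a large protein with a kinase domain, had 2 broad sites with both marks and little else of high fold. The first was its start, where 1 H3K27ac peak of 7281 bp had 119 fragments at the summit and a fold of 28.7 (95% Poisson interval 23.8 to 34.2). The H3K4me3 peak there was 6745 bp wide, with 276 fragments and a fold of 86.5 (76.7 to 97.3). Both were wide for their lists, at the 99.5th and 99.6th percentiles of width.

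The other site lay inside the gene, 34.5 to 41.3 kb from the start, where no listed gene start was nearer than that of BCR itself. Its H3K27ac peak was 6792 bp wide with 122 fragments and a fold of 26.1 (21.7 to 31.1), so its acetylation did not differ from that at the start beyond counting error. Its H3K4me3 peak was almost as broad, 5807 bp, but much lower, with 64 fragments and a fold of 18.9 (14.7 to 24.1). The internal site thus matched the start in acetylation and width and carried far less H3K4me3, the intervals of the H3K4me3 folds being well apart. A small pair of peaks 4.1 kb upstream of the start had folds of 10.1 and 7.29. In all, BCR had 27 H3K27ac peaks covering 25.1 kb, 17% of the window, and 3 H3K4me3 peaks covering 13.6 kb.

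Split at the midpoint of the record, BCR was marked almost wholly on the 5′ side. The fusion also keeps a 5′ part of BCR, but the breakpoint was not located, so that part need not end at the midpoint. The 5′ part of 68.8 kb held 22 H3K27ac peaks that covered 21156 bp, and the 3′ part 1 peak of 235 bp with a fold of 3.68, so that 98.9% of the covered bases lay 5′. H3K4me3 had 2 peaks in the 5′ part and 0 in the 3′ part. No peak of either mark lay in a stretch of 47.9 kb from 67.2 to 115.1 kb, nor from 115.4 kb to the 3′ end. RefSeq lists 8 pseudogenes named BCRP on chromosome 22; the handling of reads that match several places is not stated in any label or header, so a missing peak where such copies match BCR is uncertain.

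ABL1 (chr9:130713043-130887675, + strand), the kinase partner, is known to start from alternative first exons, one at the 5′ end of the gene and one far downstream, next to the shared exons. Only the upstream one was marked. At the 5′ end of the record the H3K27ac peak was 3593 bp wide with 164 fragments and a fold of 22.5 (19.2 to 26.2), and the H3K4me3 peak 4311 bp with 288 fragments and a fold of 81.5 (72.4 to 91.4). The listed start of LOC128092248, another gene, lies within 1 kb of these peaks, so the lists cannot give the marks to one of the pair.

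The start of ABL1 in the promoter table, 122.2 kb into the record, had neither mark. The nearest H3K27ac peak was 10.1 kb away with a fold of 3.67, and the nearest H3K4me3 peak 78.7 kb away. Its sequence was given above, and CpG-rich starts without marks were few. Of 12718 starts of protein-coding genes with at least 50% G and C and a CpG ratio of at least 0.6, 89.4% had H3K4me3 and 81.7% both marks, and 1297 (10.2%) had neither. Among the 2836 of these with at least 75% G and C, as at ABL1, 6.95% had neither. An unmarked start in a gene that is marked elsewhere was less rare, as 762 of 2952 genes (25.8%) with both marks at one of several listed starts also had a listed start with neither.

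Within ABL1 the remaining peaks were modest. H3K27ac peaks at 41.8, 52.3, 54.6 and 111.3 kb had folds of 8.21, 8.49, 11.5 and 3.67. Small H3K4me3 peaks at 42.8 and 43.2 kb, inside the first of these, had folds of 3.72 and 5.83. The last 62.5 kb of the record, from 112.1 kb to the 3′ end, carried no peak of either mark, and this stretch includes the unmarked start. The 5′ part held 92.1% of the H3K27ac covered bases, 9013 bp, against 769 bp in the 3′ part.

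Neither distribution stood apart from other long genes. Over 2112 protein-coding genes of at least 100 kb with H3K27ac in the record, the median share in the 5′ part was 85.6% (quartiles 51.8% and 100%), and 62.7% of them lay below BCR and 56.1% below ABL1. In 781 of the 2112 (37.0%) the 3′ part had no H3K27ac at all. The expected background, which follows local read density only above a lowest value, was 2.80 at the median BCR peak and 4.53 at the median ABL1 peak. Its median over the H3K27ac list was 3.63 and its lowest value 2.80. The BCR value thus stood at that lowest value and need not give the local read density. The partners differed in amount, as BCR had 25.1 kb of H3K27ac in 147.5 kb and ABL1 10.5 kb in 184.6 kb.

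**Figure D2:**
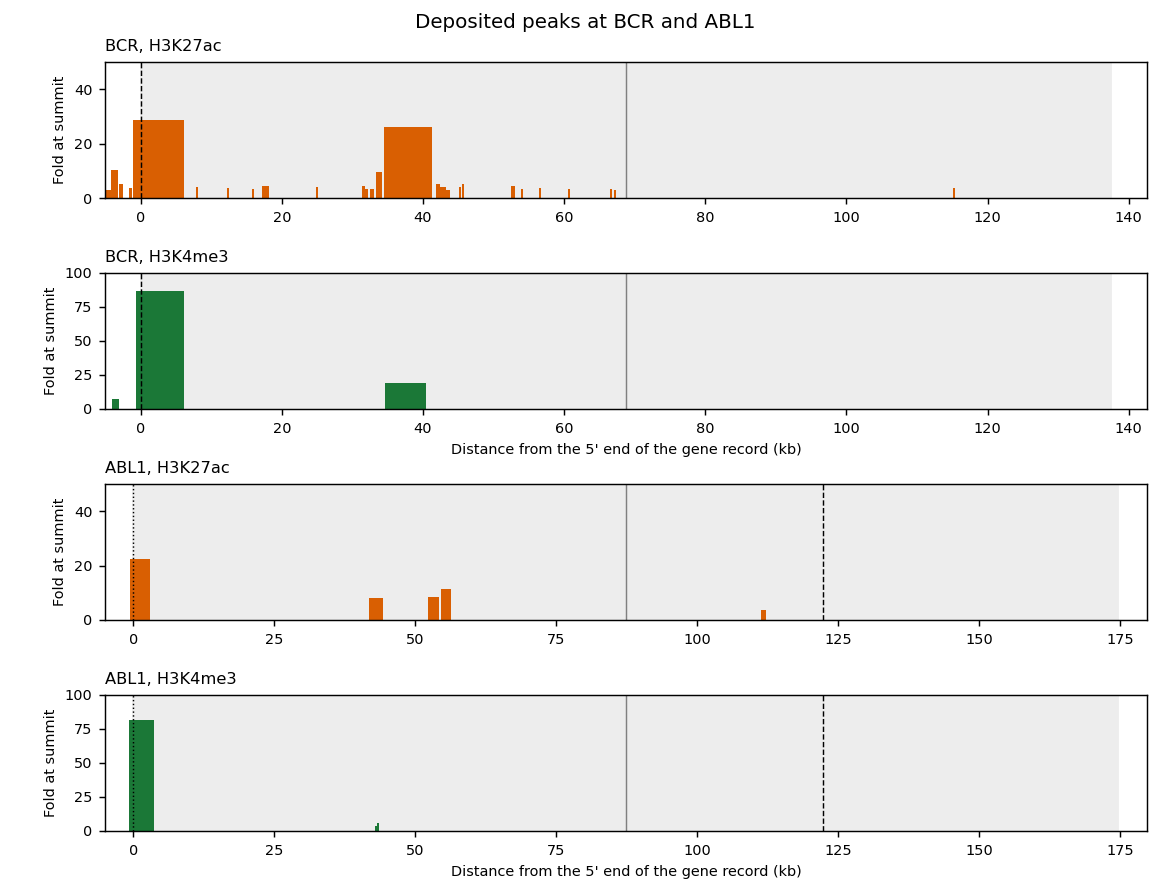
Deposited peaks at BCR (upper pair) and ABL1 (lower pair), by distance from the 5′ end of the gene record in kb; bar width is peak width, bar height the fold at the summit, orange H3K27ac and green H3K4me3. The shaded span is the record, the grey line its midpoint, dashed lines the starts of the promoter table and the dotted line the 5′ end of ABL1; BCR shows an internal site at 34.5 kb, and no bar stands at the ABL1 start at 122.2 kb.

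CRKL (chr22:20917407-20953747, + strand), the SH2 and SH3 adaptor whose phosphorylation is used to read BCR-ABL activity in patients' cells, had a compact strong promoter. The H3K27ac peak at the start was 2338 bp wide with 183 fragments and a fold of 39.8 (34.2 to 45.9), and the H3K4me3 peak 3967 bp with a fold of 78.5 (69.5 to 88.3). Separate peaks just upstream, within about 1 kb of the start, had folds of 16.2 and 40.1. Inside the gene the remaining H3K27ac folds were at most 4.76. A further pair of strong peaks in the downstream flank, with folds of 35.4 and 84.7, lay at the start of LINC01637 and not in CRKL.

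GRB2 (chr17:75318076-75405678, - strand), the adaptor that binds the phosphorylated BCR portion, was marked at both ends of its record. The start had an H3K27ac fold of 29.5 (25.3 to 34.3) and an H3K4me3 fold of 71.4. From 9.64 to 12.4 kb lay an H3K4me3 peak of 2776 bp with 212 fragments and a fold of 58.1 (50.6 to 66.5). This H3K4me3 fold was the highest of any member's peak away from a listed start. The stronger H3K27ac peaks there had folds of 12.7 and 9.94. Within their own lists, 58.1 stood at the 79.4th percentile of fold and 12.7 at the 82.7th, so the 2 marks ranked close together. At the internal BCR site H3K4me3 stood at the 59.4th percentile and H3K27ac at the 94.2nd.

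Towards its 3′ end GRB2 carried a cluster of acetylated sites. Peaks at 57.8, 62.2, 78.4 and 81.3 kb had H3K27ac folds of 26.1, 23.8, 22.7 and 14.3, the second of them 7500 bp wide. H3K4me3 peaks at 59.3, 66.8 and 78.9 kb in the same cluster had folds of 30.3, 18.4 and 10.6. The super-enhancer listed for GRB2 spans 40.2 kb over this cluster, from 52.8 to 93 kb from the start, and leaves the start outside. It ranked 366 in the authors' table by H3K27ac less input signal, with a signal over input ratio of 7.21 against a median of 8.11, and covered 39.7% of the gene. It held 19 H3K27ac and 8 H3K4me3 peaks.

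GAB2 (chr11:78215293-78417820, - strand), the docking protein that links GRB2 to PI3 kinase and is needed for BCR-ABL transformation of myeloid cells in mice, had the most peaks and covered bases of the members. It had 98 H3K27ac peaks covering 99.6 kb, 46.9% of the window, and 17 H3K4me3 peaks covering 16.4 kb. By H3K27ac covered length, which is not adjusted for gene length, it stood at the 99.97th percentile of protein-coding genes, whose median was 2306 bp. By the share of the window covered it stood at the 96.6th percentile, below SHC1 at the 97.9th. Of the 98 peaks 61 had a fold under 5 and 8 reached 10. LYN, the next member by covered length, had 32.1 kb.

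The start of GAB2 had an H3K27ac peak of 7014 bp with 195 fragments and a fold of 42.4 (36.7 to 48.7), and an H3K4me3 peak of 4121 bp with a fold of 88.8 (79.2 to 99.3). The strongest internal sites were at 60.8 to 70.9 kb, with an H3K27ac peak of 10124 bp and a fold of 24.9, and at 123.7 to 132.1 kb, with one of 8376 bp and a fold of 31.4 (27 to 36.5). H3K4me3 was far below that of the start at both. It reached 18.5 (15.0 to 22.5) in a peak of 3536 bp at the first and at most 13.6 in 4 short peaks at the second. Further acetylated sites at 83.8, 97.4 and 171.9 kb had folds of 21.4, 14.3 and 12.8. The downstream start, 75.9 kb into the record and poor in CpG, had no peak over it and no H3K4me3 within 6.86 kb. An H3K27ac peak of fold 7.56 began 839 bp past it, with its summit at 77.9 kb. That peak was 1 of the many inside the super-enhancer.

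The GAB2 super-enhancer spans 203.0 kb, from 12.8 kb before the start to 190.2 kb after it, and covers 93.9% of the record. H3K27ac peaks, 102 in all, covered 51.2% of it, and 18 H3K4me3 peaks covered 8.17%. It was 4th in length in the authors' table and ranked 13 by signal, but its ratio of signal to input, 5.68, put it at 455. Its H3K27ac signal per base was 0.615 against a median of 0.819, so the region was long and of below-median density. The authors' table takes the region as 1 unit, although the record within it was broken by unmarked stretches of up to 5.87 kb.

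**Figure D3:**
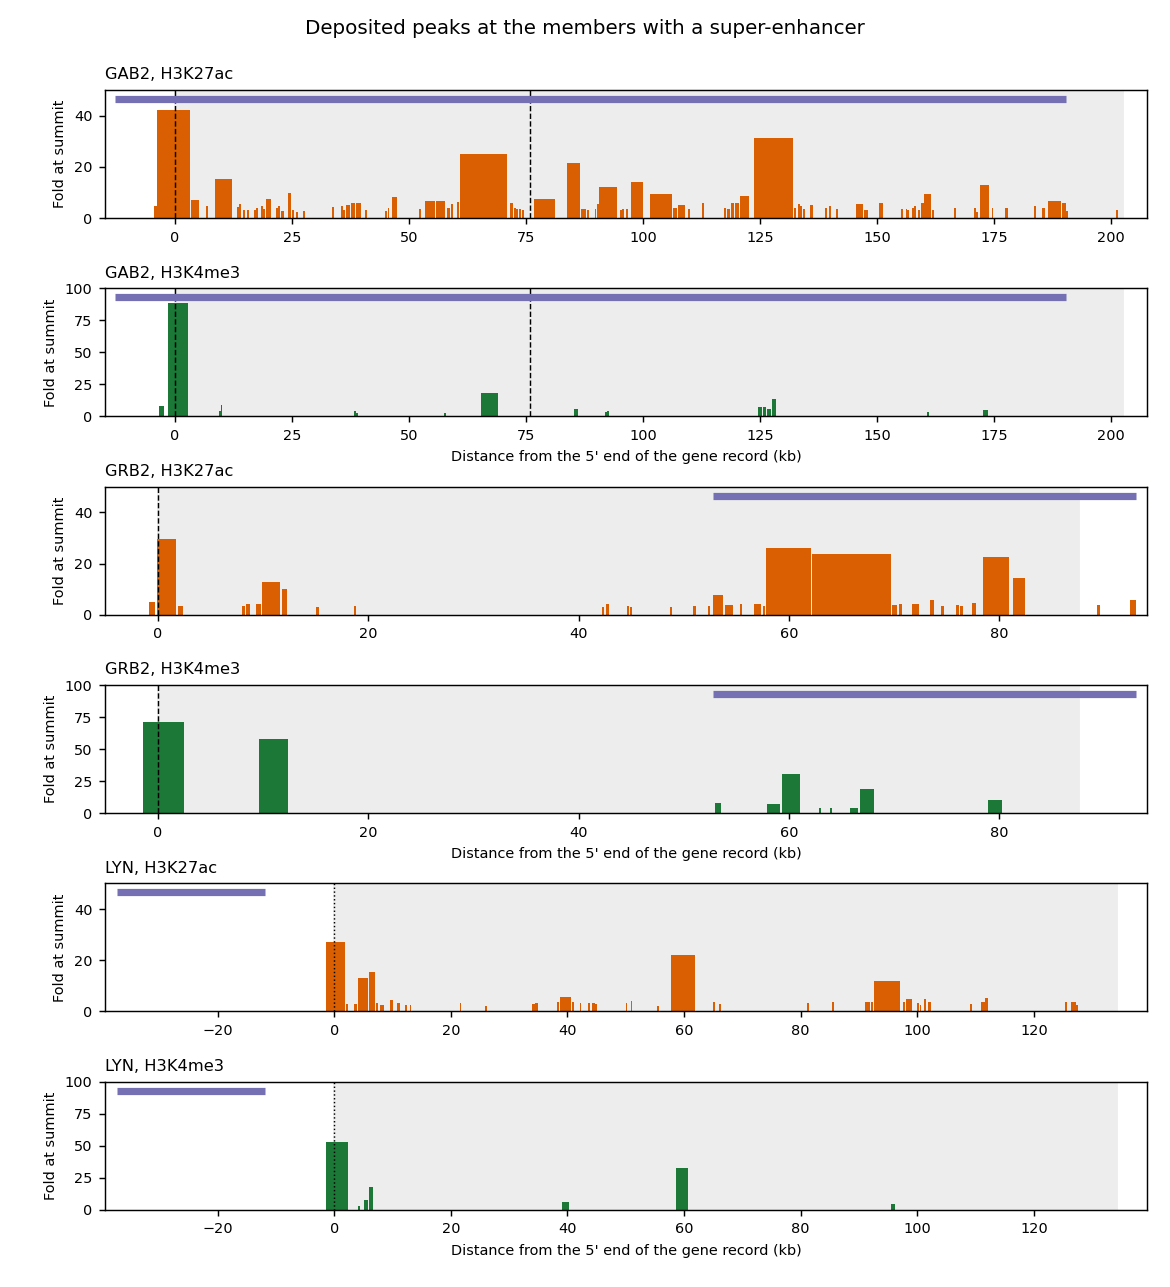
Deposited peaks at GAB2, GRB2 and LYN by distance from the 5′ end of the gene record in kb, for H3K27ac (orange) and H3K4me3 (green); bar width is peak width and bar height the fold at the summit. Purple lines are the listed super-enhancers, grey spans the records, dashed lines the starts of the promoter table and dotted lines the 5′ end of the record where the table has no start; peaks are drawn within 5 kb of the record only, so none is drawn under the LYN super-enhancer. The super-enhancer covers the start in GAB2, lies at the 3′ end in GRB2 and is upstream of LYN.

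SHC1 (chr1:154962298-154974376, - strand), an adaptor that couples phosphorylated receptors to GRB2, is the shortest of the 9 at 12.1 kb and lies among other active genes. Its start had an H3K27ac peak of only 941 bp with 181 fragments and a fold of 37.3 (32.1 to 43.1), and an H3K4me3 peak of 1915 bp with a fold of 59.8. Its downstream start at 3.63 kb had H3K27ac at a fold of 7.44 and no H3K4me3 within 1.87 kb. Like the GAB2 downstream start it was poor in CpG, with a ratio of 0.215 against 0.858 at the first SHC1 start. The high coverage of its window, 54.7% for H3K27ac, included promoters of its neighbours. The start of CKS1B lies within 1 kb of the SHC1 start peaks of both marks, so the lists cannot give these to one gene. Without peaks within 1 kb of other genes' starts, a choice made after seeing the data, SHC1 kept 9 of 13 H3K27ac peaks and 1 of 4 H3K4me3 peaks, of fold 3.66. The next peaks towards CKS1B had folds of 24.6 and 51.8, and those at PYGO2 28.5 and 62.0. An H3K27ac peak at PBXIP1 had a fold of 13.9.

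SOS1 (chr2:38981549-39124868, - strand), the exchange factor that loads RAS with GTP, had the highest start folds of the 9 in both marks, at its downstream start. At that start, 3.82 kb into the record, the H3K27ac peak was 5893 bp wide with 207 fragments and a fold of 47.2 (41.0 to 54.1), and the H3K4me3 peak 4569 bp with 311 fragments and a fold of 93.4 (83.4 to 104.4). These intervals overlapped those at the starts of GAB2 and CRKL in both marks. At the first start the overlapping peaks had folds of 21.4 and 56.4 (48.9 to 64.9). Both SOS1 starts thus carried both marks, whereas the downstream starts of GAB2 and SHC1 had H3K27ac within 1 kb without H3K4me3. At GAB2 that peak did not reach the start. Both SOS1 starts had intermediate CpG ratios, 0.557 and 0.593. The rest of the gene was bare: a stretch of 113.4 kb from 29.9 kb to the 3′ end, 79.1% of the record, had no peak of either mark.

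LYN (chr8:55879835-56014169, read here as + strand), the SRC-family kinase that can phosphorylate BCR-ABL and is raised in some resistant leukaemias, had the most fragments at its start. The summit there held 272 H3K27ac fragments and 334 H3K4me3 fragments. The expected background was high as well, at 9.07 and 5.33, so the folds were 27.1 (24.0 to 30.5) and 52.9 (47.4 to 58.9). Over the LYN record the median expected background was 2.0 times that of the H3K27ac list, and it was 2.0 and 2.05 times in the 2 Mb before and after. KBM7 is known to carry an additional copy of chromosome 8, and the part of copy number in these values was not tested.

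LYN had 45 H3K27ac peaks covering 32.1 kb, 4 of them internal with a fold of 10 or more. Close to the start, peaks at 4.03 and 5.96 kb had H3K27ac folds of 12.9 and 15.5, the latter with H3K4me3 at 17.7. At 57.8 kb the H3K27ac peak of 4076 bp had 208 fragments and a fold of 22.2 (19.3 to 25.4), with H3K4me3 at a fold of 32.5 (28.3 to 37.1) and no start in the table. At 92.6 kb a peak of 4461 bp had an H3K27ac fold of 11.8. The super-enhancer assigned to LYN spans 25.4 kb and does not touch the gene, ending 11.9 kb upstream of it. It ranked 398 with a ratio of 5.58 to input. Its input signal per base was 0.184 against a median of 0.0996 over all listed regions, so the input was raised there in the same way.

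CBL (chr11:119206339-119308149, read here as + strand), the ubiquitin ligase that binds the kinase complex through GRB2 and CRKL, had 1 strong site, at its start, and weak peaks elsewhere. The H3K27ac peak there was 3412 bp wide with 154 fragments and a fold of 29.7 (25.2 to 34.8), and the H3K4me3 peak 3052 bp with a fold of 76.8 (68.3 to 86.0). The other 12 H3K27ac peaks had folds of at most 5.40, and the other 2 H3K4me3 peaks 4.13 and 3.44. CBL thus had the fewest bases of H3K4me3 of the members, 3.53 kb, and lay 265 kb from the nearest super-enhancer.

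For the members without a super-enhancer the nearest one was 19.7 kb away for SHC1, 246 kb for BCR and 340 kb for ABL1. CRKL and SOS1 were farthest, at 2610 kb and 3772 kb.

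**Figure D4:**
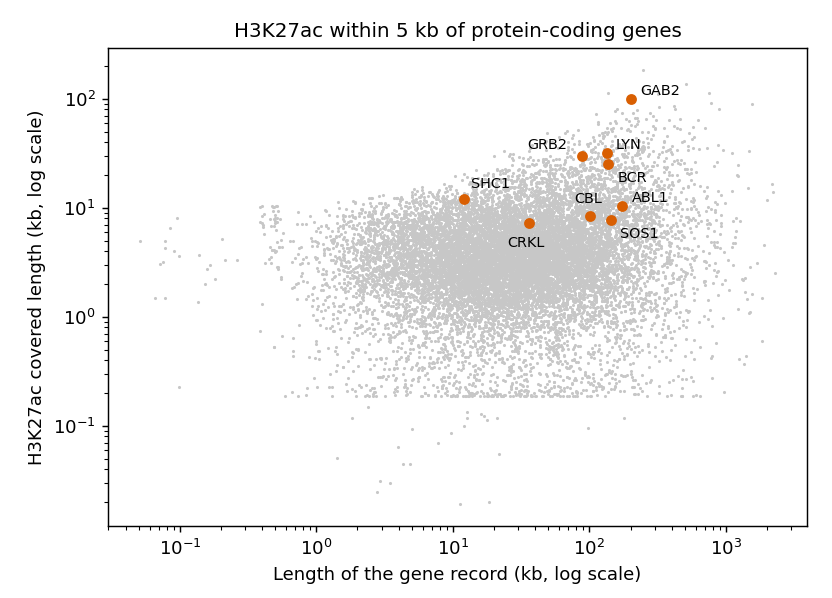
H3K27ac covered length within 5 kb of each protein-coding gene against the length of its record, both in kb on log scales; grey points are the 14521 genes with H3K27ac and orange points the 9 members. GAB2 stands at 99.6 kb, GRB2, LYN and BCR between 25 and 33 kb, and ABL1, SOS1, CBL and CRKL near 10 kb or below whatever their length.

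Relatives of the members were taken as a separate list. Of 21 paralogues, 16 had both marks within 5 kb and 13 at the start, and none had a super-enhancer. The shares of all protein-coding genes were 70.1%, 61% and 3.62%, so the count at the start was near that of all genes. GAB4, GRAP and GRAP2, relatives of GAB2 and GRB2, had no peak of either mark within 5 kb; GRAP has a near-identical copy, GRAPL, which leaves its lack of peaks uncertain. FYN, a SRC-family kinase like LYN, had only H3K4me3 at its start (fold 45.2), as did SHC2 (26.6), while SHC4 had only H3K27ac (4.40). BLK and CBLC had no start in the promoter table and were read at either end of the record. There BLK had only H3K4me3 (6.97) and CBLC only H3K27ac (25.1), which cannot be given to the start. The paralogues with most H3K27ac were ABR, the relative of BCR, with 23.1 kb, and GAB3 with 16.6 kb. ABL2 had both marks at its table start, but weakly (6.32 and 6.16), and its strongest peaks, 32.2 and 83.7, lay elsewhere in the window.

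In a wider list of 30 genes of BCR-ABL signalling, 27 had both marks within 5 kb, 24 at the start, and 10 had a super-enhancer. These counts stand beside the same 70.1%, 61% and 3.62% of all protein-coding genes. The 10 were the adaptors DOK1, NCK2 and SH2B3, the phosphatase-like UBASH3B, the PI3 kinase subunits PIK3CB and PIK3CD, the phospholipase PLCG2, the exchange factor VAV1, the kinase SYK and the lipid phosphatase INPP5D. UBASH3B had the most H3K27ac, 81.3 kb, then PLCG2 with 59.1 kb and INPP5D with 41.4 kb, all below GAB2. NCK2 had neither mark at the start, and UBASH3A and GRB7, with no start in the promoter table, had neither at either end of the record. NCK2, like ABL1, was marked elsewhere, with highest folds of 25.3 and 75.2. BCAR1 and GRB14 had H3K4me3 only, and SH3KBP1 H3K27ac only. The median H3K27ac covered length was 12073 bp over the 9 members, 6068 bp over the paralogues, 10056 bp over the wider list and 2306 bp over all protein-coding genes. The medians were not matched for gene length. All members but SHC1 have records of at least 30 kb, as do 8825 of the 19974 protein-coding genes. These lists were drawn up with earlier results of the same libraries known, and the medians are descriptions.

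The genes of similar length most like BCR, by the Euclidean distance over log2 covered length and log2 strongest fold of both marks, were LIPA (0.20), CHLSN (0.34) and HIP1 (0.34) of 2270 compared, whose median distance was 3.66. For ABL1 they were DGKD (0.17), VCL (0.19) and EXOC6 (0.20) of 1851, with a median of 2.16. For GAB2 the nearest of 1555 were GALNT2 (0.42), ZMIZ1 (0.59) and ANKS1A (0.60), with a median of 5.49. GALNT2 had 79.2 kb of H3K27ac and ZMIZ1 121.5 kb, so GAB2 was not alone in its amount.

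Short motifs were searched on both strands of the 250 bases before each of the 10 member starts and 22132 starts in all. The GC box was in 6 of the 10 and in 53.7% of all starts, and CCAAT in 6 of 10 and in 32.7%. The ETS motif CCGGAAG was in 1 (the first SHC1 start) and in 10.7% of all. The RUNX motif TGTGGT was in 1 (the first SOS1 start) and in 9.36%. The E-box CACGTG and TATAAA were in none of the 10, against 7.37% and 9.0%. None of these motifs contains another, but copies of the GC box can overlap, as they do at the first GAB2 start. A match is only a match of letters.

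As a check of the cells, 8 of 8 myeloid progenitor markers, such as MPO, SPI1 and KIT, had both marks at the start. Of these, MPO and SPI1 had no start in the promoter table and were read at either end of the record. Of 12 markers of other cell types 9 had neither. The T cell gene CD3E, read at either end of its record, was among those with both (folds 18.2 and 14.2). The part of other cell types in the members' values was not tested.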

How the data were processed

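Histone marks were measured by ChIP-seq in wild-type KBM7 cells, with 1 H3K27ac, 1 H3K4me3 and 1 input library. Per the submitters' processing notes, Bowtie2 2.3.4, bedtools 2.20.1 and hg38 were used; callers of peaks and super-enhancers were not given in the sources used here. Per the file headers and column layout, the authors deposited for each peak a score, a fold (ratio) over expected background, −log10 p, −log10 q and a summit offset, and for each super-enhancer its H3K27ac and input signal and a rank. The lists hold 96659 H3K27ac and 36951 H3K4me3 peaks, with a lowest −log10 q of 1.32 and 1.33.

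Fragments at the summit (median 21 and 39) and expected background were recovered from fold and −log10 p, in 100% of rows within 0.01. Fold intervals are 95% exact Poisson intervals of the fragment count and cover counting error only. Peaks were joined to RefSeq gene records with 5 kb either side (minimum overlap 1 bp). Starts came from the RefSeq promoter table (1 kb window), and the direction of LYN and CBL from textbook knowledge. Any gene without a start in that table, in every list and over all protein-coding genes, was read at either end of its record. Python 3.11.15, pandas 2.3.3 and scipy 1.17.1 were used, and the joins and recovery were tested on simulated data. No test was made.

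The members and gene lists were chosen with earlier results of these data known. All members were named; from the paralogue and wider lists, genes lacking a mark at the start, those with a super-enhancer, the 3 with most H3K27ac, and ABL2, which was chosen after its values were seen. Results of some genes under this rule are not reported here. Genes compared for likeness had 0.67 to 1.5 times the member's length. Alternatives were stricter peaks, other windows and other splits. Promoter sequences are not used for genes outside the table, and a split of BCR and ABL1 by exon was not run.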

Additional observations from a re-analysis of the deposited data

How the results depend on the processing

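All 9 members kept both marks within 5 kb under each of the 6 alternatives tried, which took stricter peaks, other windows or summits, or left out peaks within 1 kb of another gene's start. Both marks at the start held for 8 members, and for 9 with either end or the 5′ end of the record as the start. The latter alternative and the removal of peaks at other genes' starts were chosen after seeing the data. The super-enhancer count was 3, and 2 by overlap alone. The BCR share in the 5′ part was 98.9%, 95.7% by number of peaks, 91.4% with the split moved nearer the start, and 100% with the upper 50% of peaks by fold or a −log10 q of at least 5. The ABL1 share was 92.1%, 75% by number of peaks, and 100% with the split moved nearer the 3′ end or with the upper 50% of peaks. With the upper 50% the total of 304 peaks fell to 121, while all 9 members kept both marks within 5 kb. Peak counts thus depended on the many weak peaks, and of 18 counts by member and mark, 12 moved. The presence of H3K4me3 rested on weak peaks for SHC1 and ABL1 once peaks at other genes' starts were left out. SHC1 then kept 1 peak of fold 3.66, and ABL1 kept 2, of folds 3.72 and 5.83. The split by exon was not run. No paired analysis was possible because each mark had 1 library. With a median of 21 fragments at H3K27ac summits, single peaks of fold under 5 were imprecise, and a missing peak limits only what these lists could show.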
